A study of Mus musculus with 35 samples.

Results

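The lungs of 14 wild-type control mice were compared between ZT16 and ZT4 (zeitgeber time, hours after lights on), out of 35 mice in the series. The members were the libraries labelled as control at these times, 7 at ZT16 and 7 at ZT4, and each time held 4 mice of a September batch and 3 of a July batch. All were C57BL/6 males of 7 to 9 weeks under 12 h of light and 12 h of dark that had received control IgG at 3 µg per g body weight under the skin on 2 successive days, and the left lung lobe was perfused and frozen the day after. Mice sampled at ZT16 came from cabinets with an inverted light cycle, and mice sampled at ZT4 from the normal facility, so time of day and housing cannot be told apart in any value below. The groups set beside them were wild-type mice given the neutrophil-depleting antibody anti-Ly6G (clone 1A8) at 3 µg per g, 7 at ZT16 and 7 at ZT4 from the same batches, and mice given diphtheria toxin (DT) at 10 ng per g, 3 at ZT16 and 4 at ZT4 from an April batch. The DT mice were MRP8-Cre;iDTR-flox, in which Cre is driven by a promoter active in neutrophils and other myeloid cells and switches on the toxin receptor. Mice of both groups were likewise 7 to 9 weeks old, kept under 12 h of light and 12 h of dark, and injected on 2 days.

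Nearly every mammalian cell holds a molecular clock in which BMAL1 (gene Arntl) with CLOCK or NPAS2 switches on genes that carry an E-box, among them the Per and Cry genes, whose proteins then shut BMAL1 down. The REV-ERB receptors (Nr1d1, Nr1d2) repress Arntl and the ROR receptors activate it, and the factors DBP, TEF and HLF, opposed by NFIL3, pass the rhythm on through D-box elements. ZT4 falls in the rest phase of a nocturnal mouse and ZT16 in its active phase. In lung, clocks of airway and alveolar cells are known to set the timing of detoxifying enzymes and of the chemokines that recruit leukocytes.

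Values are normalised expression values per gene as deposited, of unknown read depth, and are compared between libraries but not between genes, since they are not stated to be per length. Each of the 14 libraries summed to between 967541 and 1033550. Lung identity was clear from the defining markers: the surfactant gene Sftpc averaged 17084 ± 979 at ZT16 and 16062 ± 1001 at ZT4, and the club cell gene Scgb1a1 27099 ± 2960 at ZT16 and 28514 ± 2459 at ZT4 (SD, n = 7 each). Libraries are numbered by group in table order, 1 to 4 from September and 5 to 7 from July. The following 4 stood apart. ZT16 library 2 had a summed value of 9 blood haemoglobin and red cell genes of 724, against at most 310 in the others at ZT16. ZT16 library 3 had a summed value of 20 heat shock genes of 15257, against at most 6391 in the others at ZT16. ZT4 library 2 had a summed value of 22 mature neutrophil genes of 1322, against at most 496 in the others at ZT4, and of the red cell genes of 856, against at most 250.2. ZT4 library 3 had a summed value of 14 adipocyte genes of 585, against at most 203. Where leaving out ZT16 library 3 and ZT4 library 2 together changed the call of a gene described below, its value without them is given beside it.

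Of 16786 genes tested, 1517 (9.04%) passed an adjusted p of 0.05, 781 higher at ZT16 (4.65% of all tested) and 736 lower (4.38%). Most differences were small: the median absolute log2 difference of called genes was 0.33, against 0.10 for all genes, and the median standard error was 0.090. Beyond 1.5-fold 85 genes were higher and 153 lower, and beyond 2-fold 12 and 21, so the larger changes were more often falls. The 7 values at ZT16 and the 7 at ZT4 did not overlap in 401 genes (2.39%), 229 higher at ZT16 (1.36%) and 172 lower (1.02%), and 379 of these were called. Calls were more frequent among genes of high deposited value, with 13.4% called in the highest quartile by level and 4.03% in the lowest. That value is not stated to be per length, so the quartiles do not rank genes by expression alone. The median absolute log2 difference of called genes was 0.24 in the highest quartile and 0.63 in the lowest. Protein-coding genes were called in 1449 of 14777 cases (9.81%) and long noncoding genes in 51 of 1268 (4.02%). By chromosome the share ran from 7.32% to 10.3%.

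Among the core clock genes, the repressor genes Cry1 and Per2 were higher at ZT16, and Nr1d1 and Dbp were far lower. Cry1 (ENSMUSG00000020038, GRCm38 chromosome 10, 85131700 to 85185064), which encodes the repressor cryptochrome 1, had a lowest, median and highest value of 37.5, 44.6 and 50.5 at ZT16, against 11.9, 15.9 and 18.1 at ZT4. The log2 difference was 1.51 ± 0.084 (SE, adjusted p = 2.21e-15), and no ZT16 lung came near the ZT4 range. Per2, a repressor that acts with cryptochromes, had 124, 163 and 269 at ZT16, against 46.7, 63.7 and 107 at ZT4. Its log2 difference was 1.29 ± 0.23 (adjusted p = 2.69e-04), again without overlap, and the highest value was that of ZT16 library 3. Nr1d1, the gene of REV-ERBα, had 14.8, 25.2 and 57.2 at ZT16, against 188, 278 and 454 at ZT4. It fell by 3.4 ± 0.31 on the log2 scale (adjusted p = 1.16e-09), the largest difference among the genes named here. Dbp, an activator at D-boxes, had 9.20, 12.5 and 41.6 at ZT16, against 41.3, 68.9 and 122 at ZT4. Its log2 difference was -2.19 ± 0.37 (adjusted p = 1.35e-04), and the groups overlapped narrowly through ZT16 library 1 and ZT4 library 2. Exons of Nr1d1 share 263 bases and those of Dbp 539 bases with another gene, and use of strand in counting is not stated, so both values are uncertain to that extent.

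The promoter of Cry1 is shown because it carries the E-box through which BMAL1 acts in the textbook clock. RefSeq (GRCm38.p6) places the window of 250 bases before and 50 after the start at chr10:85185005-85185304 on the minus strand, read 5′ to 3′ on the gene's strand, with the E-box letters CACGTG in capitals. The promoter of Lonrf3, the gene with the largest rise among those of lower level, is given beside it at chrX:36328159-36328458 on the plus strand, also with its E-box in capitals.
Cry1: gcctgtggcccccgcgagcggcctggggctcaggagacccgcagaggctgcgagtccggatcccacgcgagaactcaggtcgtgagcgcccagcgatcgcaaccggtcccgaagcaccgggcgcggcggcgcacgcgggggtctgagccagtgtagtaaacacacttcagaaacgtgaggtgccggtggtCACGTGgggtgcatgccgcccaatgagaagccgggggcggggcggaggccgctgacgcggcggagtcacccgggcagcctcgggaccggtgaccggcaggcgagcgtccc
Lonrf3: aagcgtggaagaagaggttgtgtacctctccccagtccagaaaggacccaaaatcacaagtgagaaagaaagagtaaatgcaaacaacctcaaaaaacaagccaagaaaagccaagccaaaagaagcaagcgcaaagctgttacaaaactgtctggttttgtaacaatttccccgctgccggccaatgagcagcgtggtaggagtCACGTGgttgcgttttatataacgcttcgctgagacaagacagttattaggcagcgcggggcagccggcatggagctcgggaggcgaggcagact
The 6 letters CACGTG occurred in 8.3% of 446 genes called higher at ZT16, 11.3% of 423 called lower, 9.59% of 9482 genes tested and 7.12% of all 22862 genes with a single window. Counted through any of a gene's windows, the shares were 9.8% of 592 genes called higher, 13% of 545 called lower and 10.9% of 11813 tested, and 4 of 27 genes (14.8%) among the largest rises and falls of the rule with a window held it.

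Across the 23 tested members of the core clock list, 6 rose, 3 fell and 14 did not pass, with a median log2 difference of 0.10 against -0.002 for all genes. The share called was 39.1%, against 9.04% of all genes. Rora, a receptor that activates Arntl, rose by 0.37 (82 bases of exon shared with another gene) with 67.7 to 87.5 at ZT16 and 52.4 to 66.7 at ZT4, which do not overlap. Cry2 (295 bases shared) rose by 0.33 without overlap, but its call was lost without ZT4 library 1 (0.27), ZT4 library 5 (0.31) or ZT16 library 7 (0.28). Nfil3 rose by 0.70, a call lost without ZT16 library 3 (0.58), ZT4 library 6 (0.61) or ZT4 library 7 (0.63). Bhlhe41, which encodes the E-box repressor DEC2, fell by 0.59, a call lost without ZT4 library 6 (-0.51) or ZT4 library 7 (-0.48), and its exons share 1280 bases with another gene.

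The members that did not pass divide into those near the threshold and those well short of it. Nr1d2, the other REV-ERB gene, had a log2 difference of -0.57 (adjusted p = 0.0511) and Per3 of 0.47 (adjusted p = 0.0643), and both calls depended on the setting. Nr1d2 passed with only the 14 control libraries (adjusted p = 0.0362), with no batch term, under 2 other filters on low values and under quantile normalization. It also passed without ZT16 library 1 (-0.65), ZT16 library 2 (-0.62), ZT4 library 1 (-0.65) or ZT4 library 2 (-0.63), and without ZT16 library 3 and ZT4 library 2 together (-0.66). Per3 passed with only the 14 control libraries (adjusted p = 0.0299), with array weights (adjusted p = 0.0295) and without ZT4 library 6 (0.54) or ZT4 library 7 (0.52). Csnk1e, a kinase that phosphorylates PER proteins, had 0.13 (adjusted p = 0.0605) and passed without ZT16 library 5 (0.16). Tef (0.30), Hlf (0.28), Per1 (0.26) and Clock (0.10) had positive point values with adjusted p between 0.166 and 0.591. Bhlhe40, the gene of DEC1, stood at -0.14, Ciart, a repressor of CLOCK-BMAL1, at -0.06, the F-box gene Fbxl21 at 0.05, and the PER kinase Csnk1d at 0.00, with adjusted p from 0.432 to 0.998. Arntl and Npas2, the activators, had pooled values of -0.21 and -0.02 (adjusted p = 0.716 and 0.982), each a balance of batches that ran in opposite directions.

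The batches ran apart in the activators. In July Arntl had values of 13.5, 16.3 and 10.8 at ZT16, against 12.7, 5.97 and 5.39 at ZT4, and in September 4.82, 6.57, 10.9 and 8.12 at ZT16, against 18, 12.9, 13.8 and 14.6 at ZT4. All 4 September mice at ZT16 thus lay below all 4 at ZT4, while in July the ZT16 values lay mostly above. Npas2 had 7.49, 8.12 and 10 at ZT16 in July, against 6.59, 2.74 and 3.09 at ZT4, and 2.65, 3.26, 6.24 and 3.48 at ZT16 in September, against 9.12, 5.65, 5.66 and 7.88 at ZT4. Its log2 differences were 1.05 in July and -0.82 in September. Nr1d1 kept its direction with a size of -4.63 in July and -2.47 in September, since July mice were lower at ZT16 and higher at ZT4 than September mice. Dbp measured -3.26 in July and -1.39 in September, Nr1d2 -1.25 and -0.06, Nfil3 1.24 and 0.30, and Bhlhe41 -1.16 and -0.17. Cry1, with 1.41 in July and 1.58 in September, and Rora, with 0.30 and 0.42, did not show such a gap. None of these differences between batches passed in its own test, as given further on.

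**Figure D1:**
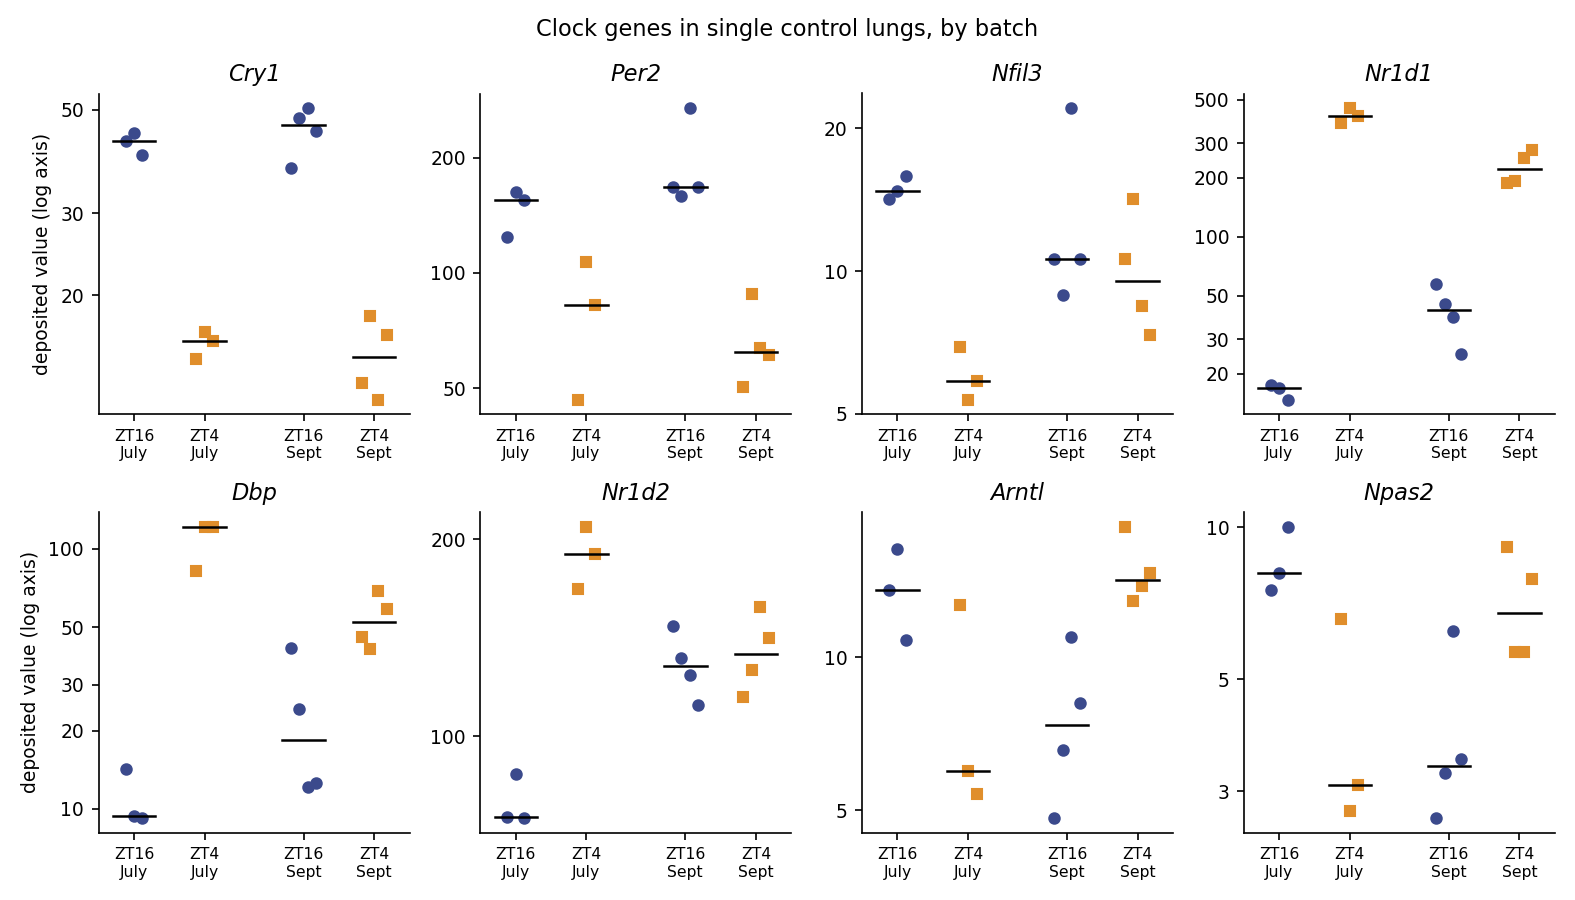
Deposited value (log axis) of 8 clock genes in each control lung, July to the left and September to the right in each panel, with ZT16 (circles) beside ZT4 (squares) and a black line at the median. Cry1 and Nr1d1 separate by time in both batches, whereas Arntl and Npas2 lie higher at ZT16 in July (log2 differences of 0.80 and 1.05) and lower in September (-0.96 and -0.82).

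Output genes of the clock leaned upward. Of 24 tested, 4 rose and none fell, with a median of 0.23. The share called was 16.7%, against 9.04% of all genes. Lonrf3 (chromosome X, 36328353 to 36362341), which encodes a protein with LON and RING domains, had 8.53, 11.5 and 14.4 at ZT16, against 1.78, 3.33 and 4.67 at ZT4, a log2 difference of 1.75 ± 0.15 (adjusted p = 1.80e-10). The groups were well apart, with 1.76 in July and 1.74 in September. Wee1, a kinase that holds back entry into mitosis, rose by 0.80, with 13.1 to 17.8 at ZT16 and 5.66 to 12.2 at ZT4. Usp2, a deubiquitinase, rose by 0.47, with exons that share 200 bases with another gene. The call of Pnp, a purine enzyme (0.22), was lost in 10 of the 14 cases of leaving out 1 library (0.20 to 0.23) and without ZT16 library 3 and ZT4 library 2 together (0.24). The count of 4 moved between 3 and 5 when 1 library was left out.

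The clearest upward group was drug and xenobiotic metabolism. Of 36 genes tested 14 rose, 5 of them beyond 1.5-fold, and 3 fell, with a median of 0.17, and 10 of the rises and 2 of the falls did not overlap between groups. The share called was 47.2%, against 9.04% of all genes. Over all genes 1.36% were higher and 1.02% lower without overlap. The summed value of the list ran from 12889 to 13968 at ZT16 and from 10740 to 11549 at ZT4, so the 7 lungs at ZT16 lay above the 7 at ZT4. Members of high value, such as Fmo2 below, weigh most in that sum, and 11 of the 36 point values were negative. Akr1c14, an aldo-keto reductase that acts on steroids, had 191, 205 and 237 at ZT16, against 62.3, 74.7 and 84.7 at ZT4 (log2 difference 1.5 ± 0.16, adjusted p = 2.63e-08). It has close paralogs and its exons share 234 bases with another gene. Fmo2 (chromosome 1, 162874317 to 162898726), the main flavin monooxygenase of lung, had 1970, 2106 and 2271 at ZT16, against 912, 1057 and 1174 at ZT4. It rose by 1.02 ± 0.077 (adjusted p = 7.68e-12), 2.03-fold, with no overlap.

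Gsta3, a glutathione transferase, had 313, 356 and 398 at ZT16, against 159, 180 and 206 at ZT4 (0.97 ± 0.054, adjusted p = 2.21e-15). Ces1g and Ces1d, carboxylesterases that hydrolyse lipids and drugs, differed by 1.44 and 0.54. Ces1g had 17.2, 19.7 and 25.7 at ZT16, against 5.85, 7.33 and 8.69 at ZT4, and Ces1d 953, 1026 and 1087 at ZT16, against 676, 689 and 747 at ZT4. Aldh1a1, the retinal dehydrogenase, rose by 0.46 with 1903 to 2147 at ZT16 and 1374 to 1651 at ZT4. The 3 members that fell were the glutathione transferases Gstm2 (-0.34) and Gstm5 (-0.32) and the aldo-keto reductase Akr1b8 (-0.33). The last of these lost its call without ZT4 library 5 (-0.27), ZT4 library 7 (-0.29) or ZT16 library 5 (-0.26). Another mu-class glutathione transferase outside the list, Gstm7, fell by 1.21 ± 0.13, with 1.61 to 2.98 at ZT16 and 4.87 to 7.98 at ZT4.

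A D-box, the element bound by DBP, TEF, HLF and NFIL3, was searched in the same promoter windows as TTATGTAA on either strand. It was present in 2.91% of the 446 genes called higher (13 genes), 0.709% of the 423 called lower (3 genes), 0.622% of the 9482 tested and 0.997% of all 22862. Read the other way, 59 tested genes carried it, and 13 of them (22%) were called higher against 4.7% of the genes with a single window, with a median log2 difference of 0.06 against -0.002. When a gene with several start sites counted through any of them, the share was 2.7% of genes called higher, 1.1% of those called lower and 0.787% of those tested. Ces1g, from the rule-based selection, and Cst8 and Larp1b, named after their values were seen, are shown with the D-box or its reverse complement TTACATAA in capitals, at chr8:93337160-93337459 on the minus strand, chr2:148798589-148798888 on the plus strand and chr3:40950536-40950835 on the plus strand in this order (RefSeq, GRCm38.p6, 5′ to 3′ on the gene's strand).
Ces1g: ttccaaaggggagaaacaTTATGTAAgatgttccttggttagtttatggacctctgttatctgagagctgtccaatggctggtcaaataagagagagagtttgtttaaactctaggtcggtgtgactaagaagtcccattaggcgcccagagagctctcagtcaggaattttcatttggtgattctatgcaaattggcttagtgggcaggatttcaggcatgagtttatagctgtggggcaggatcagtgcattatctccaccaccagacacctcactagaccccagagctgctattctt
Cst8: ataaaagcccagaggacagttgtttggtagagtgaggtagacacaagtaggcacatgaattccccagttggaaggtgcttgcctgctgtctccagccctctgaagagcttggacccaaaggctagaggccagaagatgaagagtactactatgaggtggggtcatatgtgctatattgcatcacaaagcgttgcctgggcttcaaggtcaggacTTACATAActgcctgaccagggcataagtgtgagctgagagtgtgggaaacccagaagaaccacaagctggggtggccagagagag
Larp1b: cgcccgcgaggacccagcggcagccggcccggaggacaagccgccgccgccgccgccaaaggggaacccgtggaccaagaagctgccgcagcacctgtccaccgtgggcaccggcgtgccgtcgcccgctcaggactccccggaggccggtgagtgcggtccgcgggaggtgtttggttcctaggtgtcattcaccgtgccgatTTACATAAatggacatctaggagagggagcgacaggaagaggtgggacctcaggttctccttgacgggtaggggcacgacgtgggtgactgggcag
Cst8, a cystatin gene, had 6.01, 6.65 and 9.58 at ZT16, against 3.31, 3.93 and 5.02 at ZT4 (0.79, adjusted p = 3.98e-05). Larp1b, which encodes a La-related RNA-binding protein, differed by 0.45 (adjusted p = 7.94e-05). Neither overlapped between groups. A D-box was also present in genes that were lower, among them Clec12a, a myeloid inhibitory receptor (-0.48, not called without ZT16 library 3 and ZT4 library 2 together, -0.37), and the chitinase-like gene Chil1 (-0.38). The other motifs searched were rare: the ROR element was in 0.116% of tested genes and in none of the 446 and 423, the glucocorticoid element in 0.337% of tested, 0.448% of higher and 0.473% of lower genes, and the heat shock element in 0.327% of tested, 0.448% of higher and 0.473% of lower genes. A match of letters is not a bound site.

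Apart from these groups, the rise outside known clock genes was led by a mixed set. Cys1, the gene of the ciliary protein cystin, had 42.9, 50.9 and 64.3 at ZT16, against 15.7, 18.5 and 27.3 at ZT4 (1.33 ± 0.12, adjusted p = 4.44e-10). Sh3d21 rose by 0.91, Lrtm2, a leucine-rich repeat membrane protein, by 0.91, and Ank, a pyrophosphate transporter, by 0.83. Sec14l2, a lipid transfer protein, rose by 0.82, with its highest value (61.7) in ZT16 library 3, and the adhesion receptor gene Adgrl3 by 0.79, with exons that share 1582 bases with another gene. At lower levels Gpr137c (1.5, 159 bases shared), and the vesicle GTPase gene Rab3c (1.24) rose, with 8.31 to 12.4 at ZT16 and 2.72 to 5.65 at ZT4 for the GTPase. All of these were free of overlap, which the rule that picked them required. Among the 200 genes of highest value, Timp3, an inhibitor of matrix proteases, rose by 0.66 (1443 to 1599 at ZT16, 792 to 1132 at ZT4, 1733 bases shared with another gene), Hpgd, which degrades prostaglandins, by 0.60, and the peroxidase gene Prdx6 by 0.57.

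Downward, Cxcl15 (chromosome 5, 90794534 to 90803067), a lung-restricted chemokine that attracts neutrophils in mice, had 447, 533 and 585 at ZT16, against 1169, 1284 and 1491 at ZT4. It fell by 1.31 ± 0.071 (adjusted p = 1.94e-15), and the ZT16 values were below the lowest ZT4 value by a wide margin. Acoxl, an acyl-CoA oxidase-like gene, had 23.6, 26.1 and 30.5 at ZT16, against 57.3, 72.2 and 78.7 at ZT4 (-1.33 ± 0.085, adjusted p = 1.05e-13). Lrg1, a glycoprotein that acts on TGF-beta signalling in vessels, differed by -1.06, and the sodium channel gene Scn3a by -1.01, with 12.8 to 20.8 at ZT16 and 24.8 to 44.1 at ZT4. Plekha6 (-0.83, 620 bases shared), Cpm, a membrane carboxypeptidase (-0.74), Cacna1d, a calcium channel (-0.71, 589 bases shared), and Gyg, the primer of glycogen (-0.68), were also lower. At lower levels Aoc1, a diamine oxidase that degrades histamine, had 1.36, 2.89 and 4.27 at ZT16, against 5.97, 8.77 and 11.7 at ZT4 (-1.51 ± 0.16, adjusted p = 4.66e-08). Spon2, an extracellular pattern recognition protein, differed by -1.36 and the sialyltransferase gene St6galnac3 by -1.18. None of these overlapped between groups, which the rule that picked them required.

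**Figure D2:**
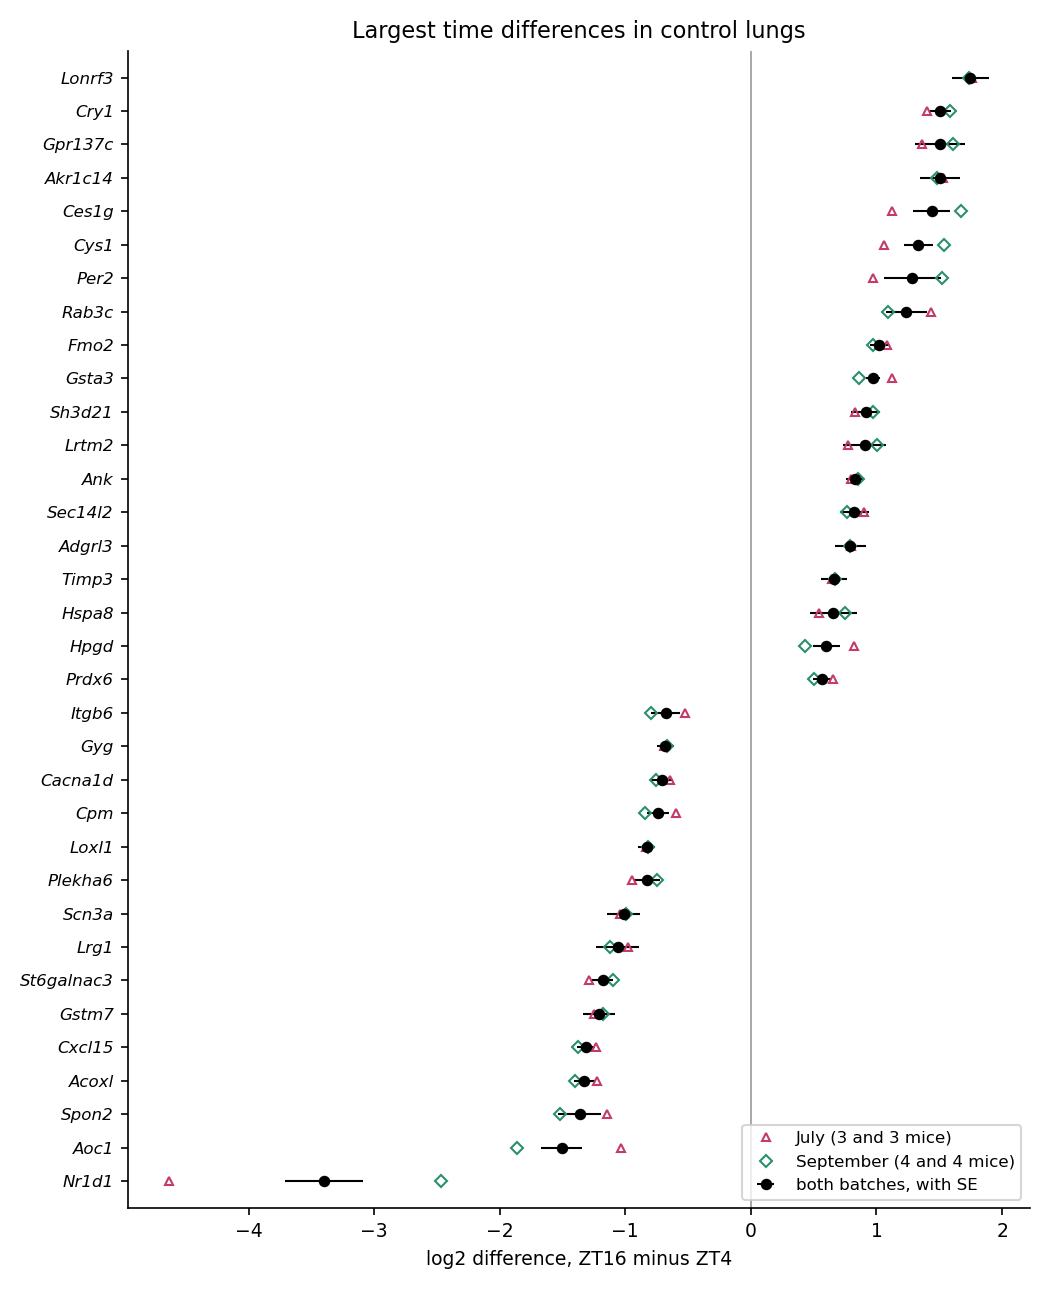
Log2 difference of ZT16 minus ZT4 for the genes of largest rise and fall and of highest value, with its standard error (black), and the difference in July (triangles) and September (diamonds) alone. July and September lie close together for most genes, such as Lonrf3 (1.76 and 1.74) and Loxl1 (-0.84 and -0.82), and far apart for Nr1d1 (-4.63 and -2.47). Most genes shown were picked for the same sign in both batches and no overlap, so their closeness is favoured by the picking.

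Among genes of fatty acid oxidation the calls were falls. Of 26 tested, 8 fell and none rose, with a median of -0.14, 22 negative point values and 5 falls without overlap. The share called was 30.8%, against 9.04% of all genes, of which 1.02% were lower without overlap. Acadl, the long-chain acyl-CoA dehydrogenase, had 92.0, 101 and 111 at ZT16, against 115, 128 and 137 at ZT4 (-0.36). Slc25a20, which carries acylcarnitines into mitochondria, fell by 0.40 and Acaa2, the last enzyme of the cycle, by 0.29. By batch the list's median stood at -0.03 (July) and -0.20 (September), and the number lower in July alone was 0. Antioxidant genes of the NRF2 list went both ways, 3 higher and 2 lower of 20 (25% called). The superoxide dismutases Sod2 (0.26) and Sod1 (0.22) and the factor gene Nfe2l2 (0.25) rose, catalase (Cat) fell by 0.29 and the cystine transporter Slc7a11 by 0.48, a call lost without ZT4 library 1 (-0.39) or ZT16 library 5 (-0.40). Without ZT16 library 4, 4 genes of that list were lower.

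Called were 15.4% of lipid synthesis, 21.7% of glycolysis and hypoxia and 3.57% of cell cycle genes, against 9.04% of all genes. In lipid synthesis 2 of 26 genes rose and 2 fell. The desaturase gene Scd2 (0.46, 1025 to 1321 at ZT16 and 786 to 956 at ZT4) and the phosphomevalonate kinase gene Pmvk (0.68) rose, and Srebf2, the regulator of sterol synthesis, fell by 0.20. Hsd17b7 was the other lower gene (-0.38), a call lost without any of 6 single libraries or without ZT16 library 3 and ZT4 library 2 together (-0.37), and 4 genes were lower without ZT16 library 1. In glycolysis and the hypoxia response 4 of 23 rose and 1 fell: Pgk1 (0.20), Pkm (0.19, 767 bases shared), the glucose transporter gene Slc2a1 (0.29) and Pfkl (0.16, lost without any of 8 single libraries) rose, and the phosphofructokinase gene Pfkp fell by 0.23, with 748 bases shared. No gene passed among 28 of oxidative phosphorylation (median -0.07, 26 negative), 32 of cytosolic ribosomal proteins (median -0.005) or 22 of the unfolded protein response (median 0.03). Cell cycle genes held 1 fall among 28, Ccnd1 (-0.29, 1100 bases shared), lost without any of 6 single libraries.

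In stress-related lists the share called was 10% (heat shock), 10% (glucocorticoid targets) and 5.26% (immediate early genes), against 9.04% of all genes. All 20 heat shock genes had positive point values, with a median of 0.30, but 2 rose, Hspa8, a constitutive chaperone (0.66), and Hspa4l (0.52). Hspa8 had 1694, 1945 and 4550 at ZT16, against 1016, 1273 and 2135 at ZT4, so the groups overlapped, and its highest value was in ZT16 library 3. Its call was lost without that library (0.47), without ZT4 library 5 (0.59) or under quantile normalization (0.49), and its exons share 262 bases with another gene. By batch, heat shock genes had medians of 0.07 (July) and 0.42 (September). The cold-inducible genes Cirbp and Rbm3 had -0.31 and -0.27, and 0 of these 2 passed. Of 20 glucocorticoid targets 17 had positive values (median 0.22; 0.51 in July and 0.09 in September), with Sult1a1 higher (0.52, lost without any of 8 single libraries) and Lcn2 lower (-0.48; -0.38 and not called without ZT16 library 3 and ZT4 library 2 together). Without ZT4 library 2, 2 of these genes were higher. Among 19 immediate early genes Junb fell by 0.49, a call lost without any of 10 single libraries (-0.42 to -0.51) or without ZT16 library 3 and ZT4 library 2 together (-0.47), and 2 were lower without ZT4 library 3.

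Epithelial lists held calls in both directions. Called were 36.4% of alveolar type 2 and 10% of alveolar type 1 genes, against 9.04% of all genes. The share was 16.7% of club and secretory, 16.7% of ion transport and 4.55% of ciliated genes. Among 22 alveolar type 2 (AT2) genes, which mark the surfactant-making cells, 6 fell and 2 rose with a median of -0.03. Of the falls 5 did not overlap, where 1.02% of all genes were lower without overlap. After Cxcl15 came S100g, a calcium-binding protein (20.9 to 24.8 at ZT16, 32.4 to 43.5 at ZT4; -0.63), and Chil1 (554 to 591 at ZT16, 673 to 794 at ZT4; -0.38). The 2 rises, of the protease gene Ctsh (0.26) and of Sfta2 (0.25), were lost without any of 7 single libraries each, and that of Sfta2 (0.24) also without ZT16 library 3 and ZT4 library 2 together. Summed over the list the values were 30884 to 35533 at ZT16 and 31133 to 36764 at ZT4, which overlap. Of 20 alveolar type 1 genes Lmo7 rose by 0.48 and Itgb6, a subunit of the integrin that activates TGF-beta, fell by 0.68, both without overlap. Of 18 club and secretory genes Aldh1a1 rose, and Pigr (-0.46) and Scgb3a2 (-0.25) fell, calls lost without any of 7 and of 10 single libraries, and for Pigr (-0.47) also without ZT16 library 3 and ZT4 library 2 together. The club and secretory list had 13 negative point values and a median of -0.09, and the ciliated list 19 negative values and a median of -0.09. In the ciliated list of 22 Mlf1 passed (-0.29, lost without any of 6 single libraries), and 2 or 3 genes were lower without ZT16 library 4, ZT16 library 7, ZT4 library 2 or ZT4 library 6. Of 18 ion transport genes Scn3a fell, and the epithelial sodium channel gene Scnn1a (0.43) and the chloride cotransporter gene Slc12a2 (0.29) rose. Basal cell genes (5 tested) and neuroendocrine and nerve genes (9 tested) held no call.

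In lists of the matrix and its cells more genes fell than rose. Called were 31.6% of matrix, 21.1% of smooth muscle and pericyte, 9.09% of fibroblast and 5.56% of mesothelial genes, against 9.04% of all genes. Of 38 extracellular matrix genes 9 fell and 3 rose, with 26 negative point values and a median of -0.09. The summed values of the matrix list were 9173 to 11861 at ZT16 and 9849 to 11465 at ZT4, and those of the fibroblast, smooth muscle and mesothelial lists overlapped as well. Loxl1, an enzyme that crosslinks elastin, had 47.9, 60.0 and 62.2 at ZT16, against 81.3, 105 and 121 at ZT4 (-0.83 ± 0.068, adjusted p = 8.73e-11). Fbn1, the microfibril protein fibrillin 1, fell by 0.47, with 2442 bases shared with another gene, and Col1a1, a fibrillar collagen, by 0.42. The rises were those of Col8a1 (0.51), Col12a1 (0.51) and Ltbp2 (0.26). Fibroblast markers held 2 falls among 22, Col1a1 and Col13a1 (-0.50), and 4 without ZT16 library 3 or ZT4 library 3 and without ZT16 library 3 and ZT4 library 2 together. Of 19 smooth muscle and pericyte genes 4 fell, Smtn (-0.35, 714 bases shared), Actg2 (-0.61), Acta2 (-0.42) and Pdgfrb (-0.29). The call of Pdgfrb was lost when limma was fitted to only the 14 control libraries (adjusted p = 0.0506). Upk1b, a uroplakin of mesothelium, was lower among 18 mesothelial genes (-0.42), with 2 genes lower without ZT16 library 3 and 3 without ZT4 library 4. Of 20 proteases and inhibitors Timp3 and Ctsh rose and Mmp9 fell (15% called). There 2 genes were lower without ZT16 library 2, ZT16 library 5 or ZT4 library 7 and 3 without ZT4 library 2.

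Endothelial genes went in both directions. Called were 31.8% of capillary, 18.2% of large vessel and 18.2% of lymphatic genes, against 9.04% of all genes. Of 22 capillary genes 5 rose and 2 fell with a median of 0.10, and the rises were 3 without ZT4 library 3 or ZT4 library 5. Ptprb, a phosphatase that restrains TIE2 signalling, had 1054, 1209 and 1292 at ZT16, against 718, 841 and 1054 at ZT4 (0.48), so the groups touched at the edge. Calcrl, the receptor of adrenomedullin, rose by 0.43 and Tek, the gene of TIE2, by 0.37. Flt1 (0.30) and Clec14a (0.30) lost their calls without any of 5 and of 9 single libraries, and Flt1 (0.27) also without ZT16 library 3 and ZT4 library 2 together. The sialomucin gene Emcn fell by 0.48 with 35 to 49.5 at ZT16 and 56.3 to 71.3 at ZT4, and the apelin receptor gene Aplnr by 0.57. Among 20 genes of angiogenic signalling 2 rose (Tek and Flt1) and 3 fell (Aplnr, Pdgfrb and Pdgfb), so 25% were called. Pdgfrb did not pass with only the 14 control libraries. Pdgfb (-0.37) lost its call without ZT16 library 3 (-0.32) or without ZT16 library 3 and ZT4 library 2 together (-0.30). Of 11 large vessel genes Gja5 fell by 0.53 (165 bases shared) and Slc6a2 had 0.59, lost without any of 7 single libraries. Of 11 lymphatic genes Lyve1 (0.53) and Mmrn1 (0.37) rose. Lyve1 lost its call without ZT16 library 3 (0.39), ZT4 library 3 (0.49) or ZT4 library 5 (0.45), and Mmrn1 without any of 8 single libraries or without ZT16 library 3 and ZT4 library 2 together (0.38).

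**Figure D3:**
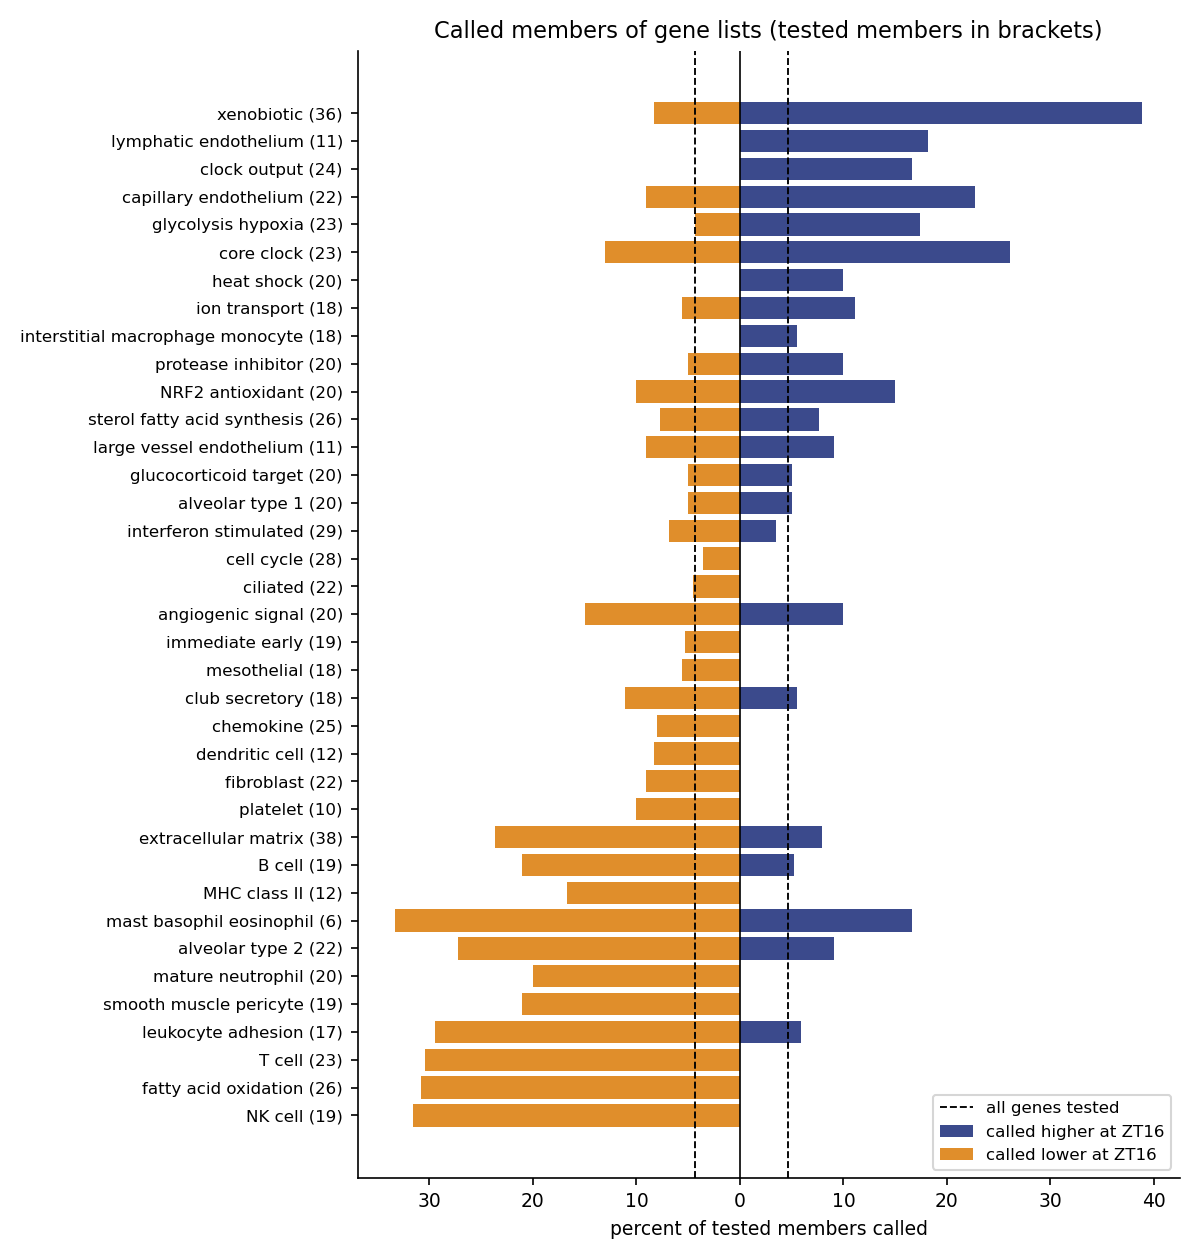
Percent of the tested members of each gene list that were called higher (right) or lower (left) at ZT16, for the lists with at least 1 call, sorted by the net share. The dashed lines give the share over all genes, 4.65% higher and 4.38% lower. Xenobiotic metabolism reached furthest to the right (14 of 36 genes higher), and NK cell, fatty acid oxidation and T cell lists lay far to the left.

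Lymphocyte and NK cell markers were lower at ZT16 in point value almost throughout. Called were 31.6% of NK cell, 30.4% of T cell and 26.3% of B cell genes, against 9.04% of all genes. The number of calls moved when any of several single libraries, at either time, was left out. In tissue RNA, fewer cells of a type and less RNA per cell cannot be told apart. Of 19 NK cell genes none rose, 6 fell and all 19 point values were negative (median -0.46), and their summed value was 33.1 to 54.2 at ZT16 and 57.2 to 77.0 at ZT4, without overlap. Klra7, an NK receptor, had 0.932, 1.65 and 2.30 at ZT16, against 2.00, 3.18 and 4.16 at ZT4 (-0.77), its relative Klra8 differed by -0.63 and Eomes, a factor of NK cell maturation, by -0.80. Without ZT16 library 3 and ZT4 library 2 together 2 NK genes passed, and 3 without ZT16 library 3, ZT4 library 3 or ZT4 library 6 alone. Of 23 T cell genes 7 fell and none rose (median -0.31, 22 negative), among them Lck (-0.55, 25 bases shared) and Cd3d (-0.57). Without ZT16 library 3 and ZT4 library 2 together 1 T cell gene passed. With 1 library left out the count was 2 without ZT16 library 3, 3 without ZT16 library 7, ZT4 library 3, ZT4 library 5 or ZT4 library 6, and 4 without ZT16 library 4 or ZT4 library 1. It was 3 with only the 14 control libraries and 3 under quantile normalization. Eomes (-0.61) and Cd3d (-0.53) lost their calls without the 2 libraries, and Cd3d also without ZT16 library 3 (-0.51) or ZT16 library 5 (-0.47).

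Of 19 B cell genes 4 fell and 1 rose, with the lowest list median of the lymphocyte lists (-0.64) and 17 lower in both batches. Vpreb3, a gene of B cell development, went against the list, with 23.8, 27.2 and 30.5 at ZT16, against 12.6, 18.2 and 18.7 at ZT4 (0.71 ± 0.092, adjusted p = 2.23e-06). Cd37, a tetraspanin, fell by 0.64 (-0.51 and not called without ZT16 library 3 and ZT4 library 2 together) and Ebf1, a B lineage factor, by 0.33, a call lost without ZT4 library 6 (-0.29) or ZT16 library 7 (-0.27). Cd79b (-0.70) and Pou2af1 (-0.73) lost theirs without any of 9 and of 7 single libraries, and Pou2af1 (-0.66) also without ZT16 library 3 and ZT4 library 2 together. The number of B cell genes lower ran from 1 (without ZT16 library 7 or ZT4 library 6) to 9 (without ZT4 library 2) and 10 (without ZT16 library 2), and was 0 when the fit held only the 14 control libraries and 2 without ZT16 library 3, ZT16 library 6, ZT4 library 1, ZT4 library 3 or ZT4 library 5. The ranges of the summed value overlapped, 111 to 252 at ZT16 and 157 to 357 at ZT4. Genes of the MHC class II list were lower in all 12 point values (median -0.29; 16.7% called, against 9.04% of all genes) with 2 falls, H2-Ob (-0.98) and H2-DMa (-0.35, 360 bases shared). That count was 5 with only the 14 control libraries or without ZT4 library 2, 4 with no batch term and 6 without ZT16 library 2, 3 without ZT16 library 1, ZT16 library 5 or ZT4 library 7, and 1 without ZT4 library 3, where H2-DMa measured -0.31.

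Myeloid lists differed in how they depended on single mice. Called were 20% of mature neutrophil and 35.3% of leukocyte adhesion genes, against 9.04% of all genes. All 20 mature neutrophil genes were lower in point value (median -0.84; -0.14 in July and -1.36 in September), and 4 fell. Mmp9, a neutrophil gelatinase, had 2.67, 4.52 and 5.98 at ZT16, against 5.43, 8.63 and 47.8 at ZT4 (-1.24), and the highest value was that of ZT4 library 2. Lcn2, an iron-binding granule protein, fell by 0.48, and Padi4, which citrullinates histones, by 0.84, a call lost without ZT4 library 2 (-0.55) or any of 4 others. Without ZT16 library 3 and ZT4 library 2 together 2 neutrophil genes passed, Lcn2 (-0.38) and Padi4 (-0.45) no longer among them, whereas the count was 7 or 8 without ZT16 library 5, ZT4 library 3 or ZT4 library 4. The summed value was 179 to 266 at ZT16 and 268 to 1322 at ZT4. Leukocyte adhesion genes held 5 falls and 1 rise among 17. Itga4, an integrin subunit, differed by -0.37, with 1124 bases shared. The calls of Itgal (-0.49), Selplg (-0.45) and Itgam (-0.69) were lost without ZT4 library 2 (-0.40, -0.30 and -0.47) among other single libraries, and without ZT16 library 3 and ZT4 library 2 together (-0.35, -0.25 and -0.40). Red cell genes, a sign of blood left in the tissue, summed to between 68.5 and 724 at ZT16 and between 60.4 and 856 at ZT4, and their part in the leukocyte differences was not tested. The junction gene Jam2 rose by 0.37. The number lower was 2 without the 2 libraries together, and also without any of ZT16 library 3, ZT16 library 4, ZT16 library 7, ZT4 library 1 or ZT4 library 2, and 3 without ZT4 library 6.

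Other blood and immune lists held between 0 and 3 calls each. Called were 10.3% of interferon-stimulated, 10% of platelet, 8.33% of dendritic cell and 8% of chemokine genes, against 9.04% of all genes. In the interstitial macrophage and monocyte list 5.56% were called. Alveolar macrophage genes held no call among 18 (median 0.07), and the interstitial macrophage and monocyte list had Lyve1 higher among 18, with 2 genes lower without ZT16 library 2 or ZT16 library 5. Dendritic cell genes had Cd83 lower (-0.32) among 12, and 2 genes lower without ZT16 library 5 or ZT4 library 2. Of 29 interferon-stimulated genes 27 had negative values (median -0.28), with Ifit3 higher (0.56) and Oas1a (-0.59) and Rsad2 (-0.83) lower, calls that were lost without ZT4 library 1 (-0.54) for Oas1a and without any of 11 single libraries for Rsad2, and for both without ZT16 library 3 and ZT4 library 2 together (-0.54 for Oas1a and -0.71 for Rsad2). The number lower was 7 with only the 14 control libraries. Among 25 chemokine genes Ccl5 fell with Cxcl15 (-0.41, lost without any of 7 single libraries). Of 6 tested genes of mast cells, basophils and eosinophils 1 rose and 2 fell (50% called), 1 of the falls without overlap. Kit rose by 0.30, lost without ZT4 library 5 (0.26), and Cpa3 fell by 0.59, lost without any of 7 single libraries. Of 10 platelet genes Itgb3 fell by 0.36. Red cell (7 tested), heart muscle (21), adipocyte (13), skeletal muscle (5) and thymus or lymph node genes (5) held no call, with medians of 0.15, -0.14, -0.13, -0.22 and -0.21. Without ZT4 library 6, 2 heart muscle genes were lower. Some genes belong to more than 1 list, so the counts are not independent.

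**Figure D4:**
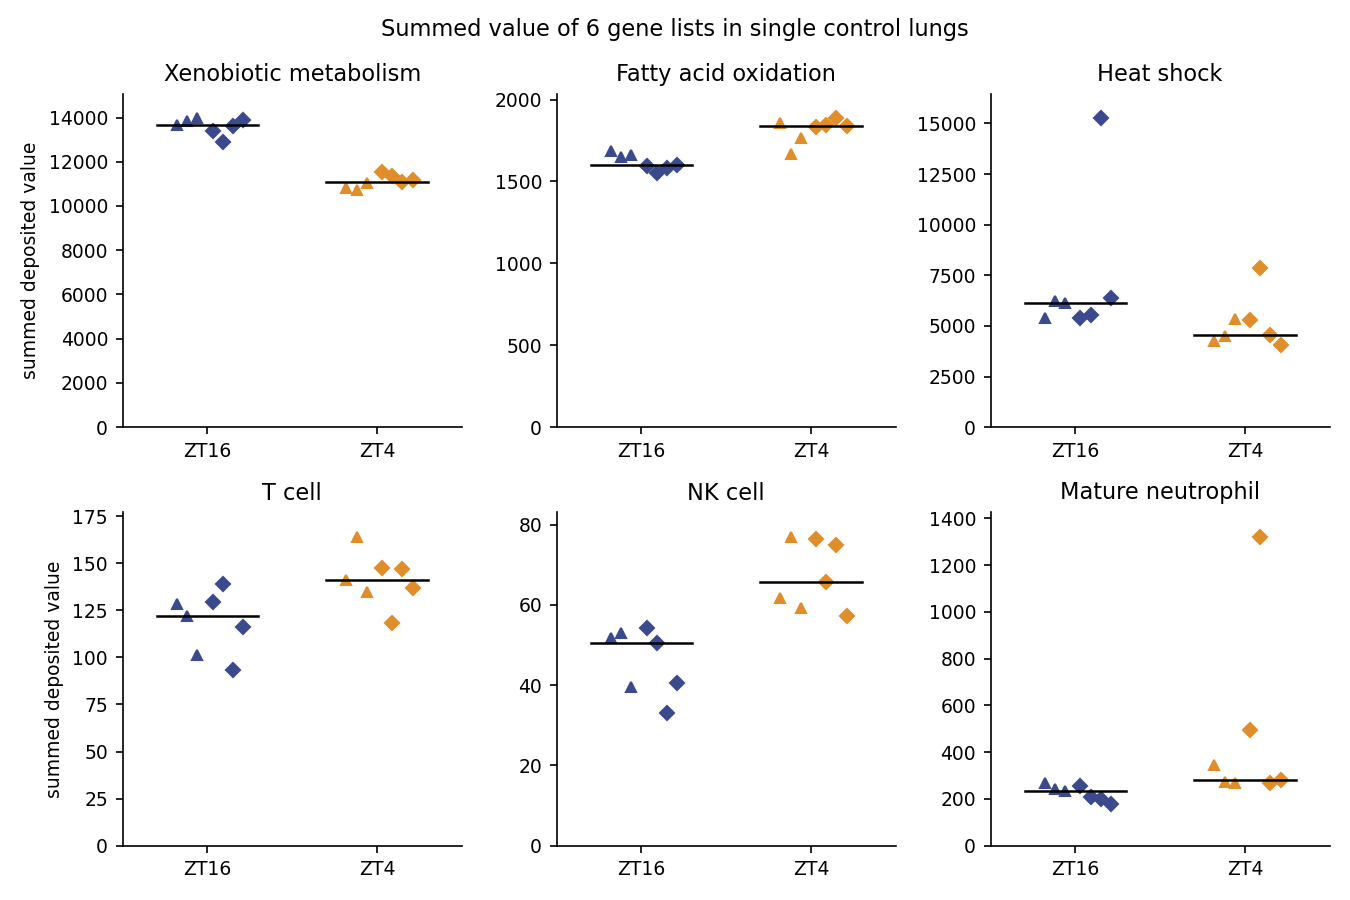
Summed deposited value of 6 gene lists in each control lung (July triangles, September diamonds), ZT16 to the left and ZT4 to the right, with a line at the median of 7. Xenobiotic metabolism, fatty acid oxidation and NK cell sums show little or no overlap between times, while a single lung stands far above the rest in the heat shock panel at ZT16 (15257) and in the neutrophil panel at ZT4 (1322).

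How far the batches gave the same answer was examined next. In July alone, with 3 mice per group, 495 genes (2.95%) passed, 274 higher and 221 lower, and the number was 218 without ZT4 library 5, 248 without ZT16 library 7 and 274 without ZT16 library 5, 307 without ZT4 library 6 and 322 without ZT4 library 7. In September alone, with 4 per group, 634 (3.78%) passed, 304 higher and 330 lower, and 309 without ZT4 library 1, 332 without ZT16 library 3 and 280 without ZT16 library 3 and ZT4 library 2 together. Both batches called 164 genes, all in the same direction, which is 33.1% of the July calls and 25.9% of the September calls. Of the 634 September genes 575 (90.7%) had the same sign in July, and of the 495 July genes 449 (90.7%) in September, against 61.5% of all genes. The September genes had a median size of 0.45 in September and 0.26 in July, and the July genes 0.52 in July and 0.25 in September. The smaller median in the other batch is favoured by the picking itself, so it does not show how far the batches differed. Tested directly, the difference of September minus July called 0 of 16786 genes (0%) in limma, and the smallest adjusted p was 0.0669. Unadjusted p was under 0.05 in 1363 genes, where a share of 0.05 would fall if no gene differed.

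The genes with the smallest p in that difference are named as measured. Jund, an AP-1 subunit with 877 bases shared, had -0.62 in July and 0.12 in September. Bcl6b, a repressor in endothelium and lymphocytes, had -1.18 and -0.11, with a pooled difference of -0.57 that lost its call without any of 7 single libraries. Nr1d1 was the other gene of this direction (adjusted p = 0.152). In the opposite direction Net1, an exchange factor of RhoA, had 0.32 in July and -0.11 in September, Itga7, a laminin receptor, 0.20 and -0.41, and Pafah2, which cleaves platelet-activating factor, 0.13 and -0.32. Net1 had 141, 152 and 160 at ZT16 in July, against 116, 123 and 122 at ZT4, and 138, 134, 122 and 124 at ZT16 in September, against 136, 134, 151 and 136 at ZT4.

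The control time difference was then set beside those of depleted mice. Of the 33 genes beyond 2-fold in control mice, 32 had the same sign in anti-Ly6G mice and 30 were called there, against 73.1% of all genes with the same sign and 20.9% called for time in anti-Ly6G mice. In DT mice 30 of the 33 had the same sign and 14 were called. Cry1 differed by 1.83 in anti-Ly6G mice, 1.2 in DT mice and 1.51 in control mice, and Acoxl by -1.40, -1.04 and -1.33 in the same order. For the anti-Ly6G minus control time difference, 1007 of 16786 genes had an unadjusted p under 0.05 in limma. A share of 0.05 would fall there if no gene differed. This difference called 0 genes (0%) after adjustment, and its smallest adjusted p was 0.812. Its genes of smallest p were Kdf1 (-0.42), Iqcb1, Apba1, Cox10 (0.38) and Wsb1. Kdf1 had -0.17 in anti-Ly6G mice and 0.24 in control mice, a call lost without ZT16 library 5 (0.22), ZT4 library 3 (0.21) or ZT4 library 5 (0.23). Iqcb1 had -0.34 in anti-Ly6G mice and 0.15 in control mice, Apba1 0.55 and 0.12, Cox10 0.29 and -0.09, and Wsb1 -0.66 and -0.29.

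The DT time difference departed from that of control mice in 2314 genes (13.8%), 827 higher and 1487 lower, and 2565 genes (15.3%) were called for time within DT mice. Batch, genotype and treatment cannot be told apart in that comparison, and it shares the control samples with the results above. Among the 1517 control calls 866 (57.1%) kept their sign in DT mice, against 47.0% of all genes. The genes of smallest p were Ptprb, Abcb1a, Rdx, Cdk14 and Itga1. Ptprb had -0.53 in DT mice and 0.48 in control mice, a difference of -1.01 ± 0.135 (adjusted p = 3.56e-05). The drug efflux pump gene Abcb1a had -0.83 in DT mice and 0.34 in control mice (553 bases shared), and Rdx, a linker of membrane and actin, -0.43 and 0.29. Cdk14 had -0.54 in DT mice and 0.19 in control mice, a control call lost without any of 5 single libraries, and the collagen receptor gene Itga1 -1.19 and 0.13, with 685 bases shared. In clock genes the DT mice had -0.51 for Nr1d1 and 0.03 for Dbp, against -3.4 and -2.19 in control mice, differences of 2.89 (adjusted p = 0.00114) and 2.22 (adjusted p = 0.0207). Per2 had 1.04 in DT mice and 1.29 in control mice, and the difference did not pass (-0.25, adjusted p = 0.715).

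**Figure D5:**
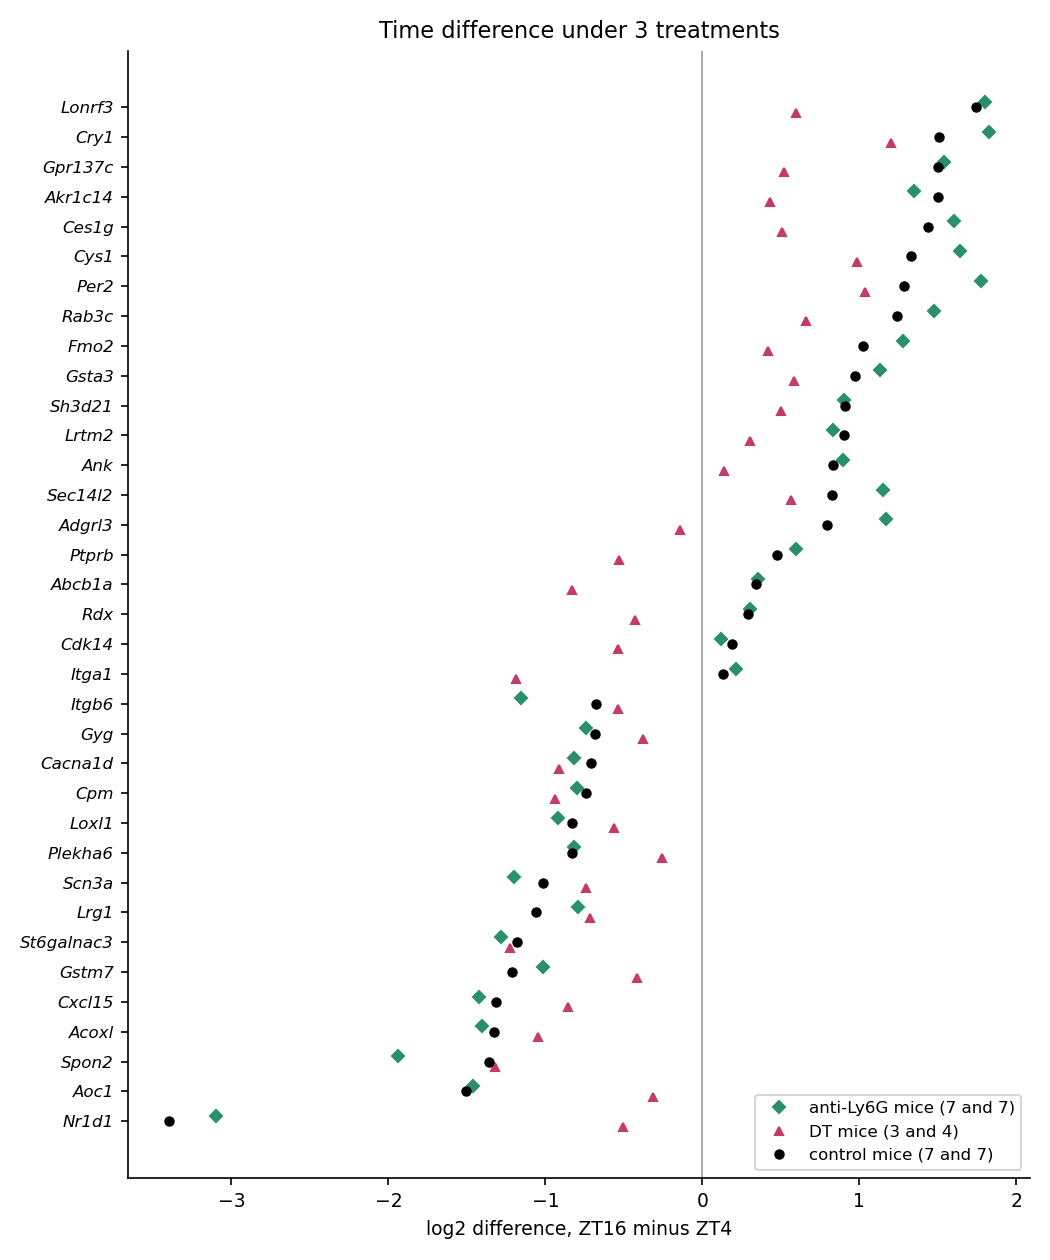
Log2 difference of ZT16 minus ZT4 in anti-Ly6G mice (diamonds), DT mice (triangles) and control mice (circles), for the genes of largest change in control mice and the 5 genes of smallest p in the DT minus control difference. Anti-Ly6G values lie near the control values, while the DT values of Ptprb, Abcb1a, Rdx, Cdk14 and Itga1 lie on the other side of 0 (for Itga1, -1.19 against 0.13).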

How the data were processed

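Lung RNA of 35 mice was amplified and sequenced. The submitters' processing notes name GRCm38 and, with no role or order, kallisto 0.43.1, RSEM 1.2.20, cutadapt and CASAVA 1.8.2. The deposited signal values, normalised expression per gene as the authors made them, hold no counts, and their normalisation, any batch adjustment and the depth are not given in the sources used here, so no interval for counting error can be given. Columns name a group and a batch but no single labelled sample, and libraries were numbered in table order. Of 22211 genes, 16786 with a value of at least 1 in at least 3 libraries were tested on log2(value + 0.5), so a fold of a low gene is understated. limma 3.58.1 (R 4.3.3, trend) was fitted to all 35 libraries by group means plus a term for batch, September against July (28 residual degrees of freedom), and with group by batch means for the batch comparisons (25 residual degrees of freedom), with Benjamini-Hochberg adjustment over all tested genes at 0.05. Adjusted p-values in the text come from these fits and measure the spread between libraries, taken as single mice. The fits were also run on simulated normal noise drawn separately for each gene. Such noise holds no shift shared by many genes of a library, so that run cannot check the p-values where such shifts occur.

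Named genes were the 12 largest rises and 12 largest falls at or above the median level, and 4 of each below it. These had to pass with the same sign in both batches and no overlap. Also named were the 6 largest called differences among the genes of highest value and all core clock genes. Each list gave up to 3 called genes by smallest p. The rest were 3 rises and 3 falls of smallest p between batches, and the 5 of smallest p in each difference from control mice. All had a usual symbol. Further list members, the D-box genes and the promoters printed were chosen after their values were seen. Some genes that meet the rule are not reported here. Members, lists and tests were chosen with earlier results of these data known. Promoter windows (250 bases before and 50 after the start) were RefSeq's, on GRCm38.p6, and matched 116 of 138 genes of the rule. The 23 pathway and 26 cell type lists, with 966 entries, had 859 distinct genes tested. Strand use in counting is not stated.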

Additional observations from a re-analysis of the deposited data

Results flagged for a closer look

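In groups of 7 libraries, a highest or lowest value was singled out by its gap to the nearest other value. The gap, as a share of the group's range, had to exceed Dixon's critical value. In independent groups of normal values this happens in about 1 in 20. Of 416 groups examined 36 did so, where that rate would give 20.8. Here values were not logged, each group held both batches, and lists shared genes with each other and with the single genes. The 20.8 is therefore not a chance expectation for these groups, and no conclusion is drawn from the excess. Of the 36 values 11 belonged to ZT16 library 3, 11 to ZT4 library 2 and 14 to 8 other libraries. Each is given here with the nearest other library.

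ZT16 library 3 was highest for the summed heat shock list (15260, next 6391), the unfolded protein list (5698, next 4440), Hspa8 (4550, next 2102), Hspa4l (285.5, next 158.8), Per2 (269.3, next 167.6), Sec14l2 (61.71, next 42.4), Lyve1 (632.2, next 405.3) and Ciart (35.02, next 22.46). It was lowest for the 2 cold-inducible genes (141.7, next 198.4), Scd2 (1025, next 1201) and Pdgfb (97.48, next 119.4). ZT4 library 2 was highest for the summed neutrophil list (1322, next 496.4), red cell genes (856.1, next 250.2) and heat shock genes (7883, next 5343). It was also highest for Mmp9 (47.85, next 16.49), Padi4 (12.18, next 3.488), Lcn2 (120.6, next 86.79), Itgam (51.2, next 27.58), Selplg (71.41, next 45.23), Ctsh (398.5, next 297.9), Pkm (426.1, next 380.4) and Hspa4l (150, next 112.6). ZT4 library 3 was highest for adipocyte genes (584.9, next 202.8) and lowest for immediate early genes (1329, next 1628) and Csnk1e (100.9, next 110.8).

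ZT16 library 2 was highest for red cell genes (723.7, next 309.8) and lowest for glycolysis genes (3803, next 3972) and Timp3 (1443, next 1563). ZT16 library 7 was highest for Cry2 (130.2, next 110.9) and Padi4 (3.998, next 1.992) and lowest for Gja5 (17.76, next 27.92). Single values were those of Junb in ZT16 library 1 (45.91, next 35.36), Pfkl in ZT16 library 5 (84.84, next 77.8), Gstm5 in ZT4 library 1 (9.244, next 8.421), Rsad2 in ZT4 library 6 (lowest, 2.963, next 6.172) and Emcn in ZT4 library 7 (71.33, next 62.17).

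The time difference in DT mice departed from that in control mice by its own test in 2314 genes. Genes named for their change in control mice or as core clock genes were also read as DT minus control. Where it passed, that difference was negative for Akr1c14 (-1.073), Lonrf3 (-1.15), Adgrl3 (-0.9345), Ces1g (-0.9313), Ank (-0.6923), Fmo2 (-0.6033), Rora (-0.4626), Gsta3 (-0.3901) and Csnk1e (-0.2456). It was positive for Nr1d1 (2.888), Dbp (2.222), Aoc1 (1.193), Bhlhe41 (1.063), Gstm7 (0.7925), Plekha6 (0.5711) and Cxcl15 (0.4597). The genes of smallest p had -1.008 (Ptprb), -1.175 (Abcb1a), -0.7232 (Rdx), -1.318 (Itga1) and -0.7306 (Cdk14). All are log2 values, and batch, genotype and treatment cannot be told apart. The control values by which most of these genes were picked also enter the difference. That favours a sign opposite to the control change.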

How the results depend on the processing

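The 1517 genes called became 644 at an adjusted p of 0.01 (365 higher, 279 lower), 238 beyond 1.5-fold (85 and 153), 495 in July alone (274 and 221) and 634 in September alone (304 and 330). Leaving out 1 library gave 1136 to 1576 genes for the time difference (590 to 822 higher, 531 to 770 lower), 218 to 533 in July, 309 to 658 in September, 0 to 2 for September minus July and 1881 to 2641 for DT minus control. September minus July called 4 genes with only the 14 control libraries and 4 with array weights. September called 280 genes without ZT16 library 3 and ZT4 library 2 together, an alternative chosen after seeing the data. Over 26 alternatives and 159 genes, apart from single batches, 3787 of 4126 values kept their direction and side of the threshold, 302 lost the call, 16 gained it and 21 changed sign. Of 138 called genes 93 kept their call in every one of these. Calls lost were 20 with only the 14 control libraries, 15 with no trend and 9 under quantile normalization.

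Sign changed for genes that were not called. Csnk1d had -0.00070 under median scaling, -0.038 under quantile normalization, -0.00086 with array weights, -0.016 to 0.015 without single libraries and -0.024 in July. Npas2 had 0.036 under quantile normalization, -0.18 to 0.13 without single libraries and 1.05 in July. Ciart had -0.20 to 0.026 without single libraries and 0.15 in September, and Fbxl21 -0.019 to 0.18 without single libraries and -0.17 in July. In July alone Arntl had 0.80, Hlf -0.066, Itga7 0.20 and Pafah2 0.13, and in September alone Clock -0.030, Net1 -0.11 and Jund 0.12. The cause was not tested. No paired analysis was possible because each lung came from a different mouse, sampled at 1 time, and the numbers in the column names are not those of the labels' titles. Unknown depth limits what can be said of genes at low values.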
